A study of Mus musculus with 3 samples.

Results

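miR-202 and miR-140 were examined in EVs isolated from the mouse testis at PND7, as the 4 mature miRNAs mmu-miR-202-5p, mmu-miR-202-3p, mmu-miR-140-5p and mmu-miR-140-3p. They were chosen by name, as miRNAs linked to Sertoli cells of the fetal and neonatal testis, by a rule that used none of their values. Earlier results of these data were known when they were chosen. All 4 were counted in each of 3 libraries, both as mature entries, of which 604 had counts in any library, and as hairpin entries, of which 743 did. Each library came from EVs of 10 C57/BL6 male mice aged 7 days, pooled before RNA extraction, and no other age, tissue or treatment was sequenced here. The EVs were recovered from the supernatant of digested, decapsulated whole testes and were treated with proteinase K, PMSF and RNase A, the treatment to which the word treated in the sample names appears to refer. The libraries can therefore hold EVs of germ cells, Sertoli cells and interstitial cells, and a lower level through fewer vesicles from a cell type cannot be told apart from less of the miRNA in each vesicle.

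A miRNA is cut from a hairpin precursor, and either arm of the hairpin, named 5p or 3p, can be loaded into an Argonaute protein, which it guides to mRNAs that pair with its seed near the 5′ end. miR-202 is known for its abundance in the gonads, where it is expressed in Sertoli cells of the fetal testis downstream of SOX9, and it is also known from spermatogonial stem cells. miR-140 is best known from cartilage, another tissue that depends on SOX9, and is also expressed in the fetal testis.

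The mature sequences of 3 of the 4 members, and of relatives with the same seed, are shown because the arms of 1 hairpin differ in seed and the 3p arm of miR-202 resembles let-7. They were taken from RefSeq for GRCm38.p6 and run 5′ to 3′, with bases 2 to 8 in capitals. miR-140-5p is named only.
miR-202-5p: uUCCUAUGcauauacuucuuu
miR-202-3p: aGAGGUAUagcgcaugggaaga
miR-140-3p: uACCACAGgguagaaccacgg
let-7c-5p: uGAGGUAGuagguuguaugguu
let-7j: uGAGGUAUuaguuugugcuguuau

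Mir202 is annotated on the minus strand of chromosome 7 from 139957689 to 139957760 in GRCm38, within an exon of the non-coding gene Gm2044 on the same strand and opposite an intron of the non-coding gene Gm16201. Its 72-base hairpin is shown to place the arms, with mature miR-202-5p (bases 9 to 29) and miR-202-3p (bases 45 to 66) in capitals and 15 bases between them.
Mir202 hairpin: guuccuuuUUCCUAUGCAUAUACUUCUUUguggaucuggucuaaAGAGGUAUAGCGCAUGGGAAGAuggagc
Mir140 lies on the plus strand of chromosome 8 from 107551244 to 107551313, inside the gene of the ubiquitin ligase Wwp2. It is intronic to the coding transcripts of Wwp2 and overlaps an exon of a retained-intron transcript only.

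miR-202 was abundant in the EVs and miR-140 was not. miR-202-5p, the 5′ arm product, had 16196, 28519 and 24105 mature counts in replicates 1, 2 and 3. Scaled to 1000000 mature counts in each library (CPM), these were 18595, 28354 and 24941, with a mean of 23963 ± 4952 (SD, n = 3). It held 2.40% of the mature counts on average and ranked 12th, 10th and 11th within the separate libraries and 12th of 604 by mean.

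miR-202-3p, from the opposite arm of the same hairpin, had 2271, 1452 and 1361 mature counts, or 2607, 1444 and 1408 CPM. Its mean was 1820 ± 682 CPM (SD, n = 3), at rank 51. Replicate 1 was the highest library for this arm and the lowest for the 5p arm.

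miR-140-5p had 48, 169 and 131 mature counts, or 55.1, 168 and 136 CPM, with a mean of 120 ± 58.1 CPM (SD, n = 3) and rank 166. miR-140-3p had 134, 49 and 33 counts, or 154, 48.7 and 34.1 CPM, with a mean of 78.9 ± 65.3 CPM (SD, n = 3) and rank 201. Without replicate 1 the mean of miR-140-3p was 41.4 CPM. The arms of miR-140 moved in opposite directions between replicate 1 and the others, and their ranges overlapped. At these counts the precision is low. The exact binomial (Clopper-Pearson) 95% interval of the lowest value, miR-140-3p in replicate 3, ran from 23.5 to 48.0 CPM, and such intervals cover counting error only.

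The order of the mature levels was thus miR-202-5p, miR-202-3p, miR-140-5p and miR-140-3p. Each library had the first above the second and the second above both arms of miR-140, whereas the arms of miR-140 could not be ordered. The 3 members with a reference sequence are 21 or 22 bases long, so the CPM were not divided by length.

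**Figure D1:**
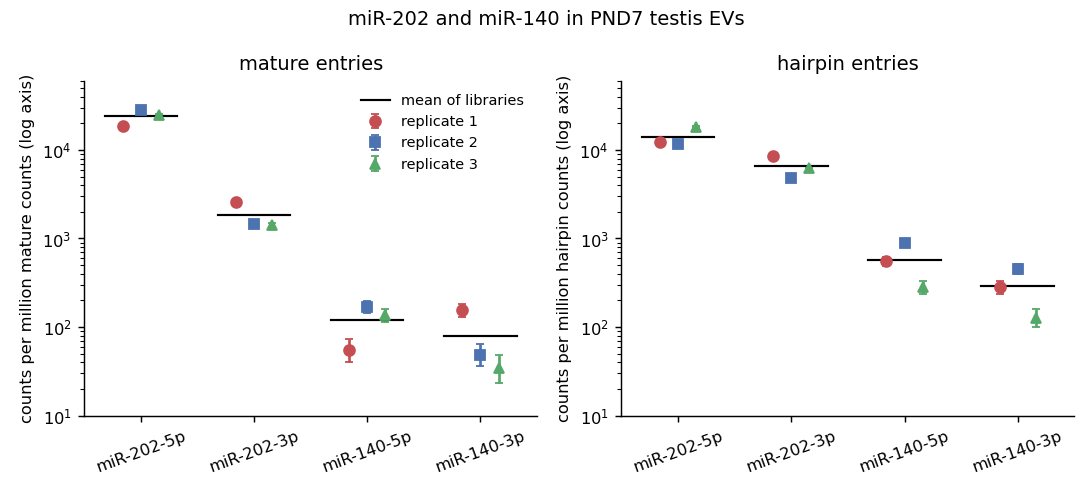
Levels of the 4 miRNAs in CPM of the mature (left) and hairpin (right) counts on log axes, with each of the 3 libraries as a point, its exact binomial 95% interval as a bar and the mean as a black line. miR-202-5p and miR-202-3p stand above both arms of miR-140 in every library, and in the mature entries replicate 1 is low for miR-140-5p and high for miR-140-3p.

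With both arms summed, miR-202 had 21203, 29797 and 26350 CPM of the mature counts in replicates 1, 2 and 3. miR-140 had 209, 217 and 170 CPM, so its sum varied far less than either of its arms. The log2 ratio of miR-202 to miR-140 was 7.01 ± 0.32 (SD, n = 3), a 129-fold difference of the same direction in all 3 libraries (p = 0.25, two-sided exact permutation test that flips the signs of the libraries). With mature and hairpin entries summed, the same log2 ratio was 5.83, a smaller difference. This p is the smallest that the sign-flip test allows with 3 libraries, and no such test here can pass 0.05. Over the 7 ratios tested in this way, the Benjamini-Hochberg adjusted value of each exact p of 0.25 was 0.35.

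The neighbours of each member in the ranking give its level in context. miR-202-5p stood beside let-7f-5p, let-7g-5p and let-7d-5p, members of the let-7 family that restrains proliferation in many tissues, with 26994 ± 10254, 24155 ± 2287 and 20791 ± 3866 CPM (SD, n = 3 each). It exceeded let-7d-5p in all 3 libraries, let-7g-5p in 2 and let-7f-5p in 1, so its order against the last pair was within the spread. Next below was miR-379-5p, with 14723 ± 2878 CPM (SD, n = 3), which it exceeded in all 3 libraries.

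Close to miR-202-3p were miR-151-5p with 1860 ± 196 CPM (SD, n = 3) and miR-341-3p with 1857 ± 162 CPM above it, and miR-351-5p with 1674 ± 246 CPM and miR-3470b with 1612 ± 419 CPM below. miR-202-3p exceeded miR-151-5p, miR-341-3p and miR-351-5p in replicate 1 only, and none of these differences in means exceeded the SD of miR-202-3p. For miR-140-5p the neighbours were miR-669d-5p, miR-128-3p, miR-379-3p and miR-669c-5p, with means from 118 to 121 CPM. For miR-140-3p they were miR-344-3p, miR-24-2-5p, a 5p miRNA that the catalogue lists as predicted and miR-880-3p, with means from 77.9 to 80.4 CPM. The SDs of both arms of miR-140 span all of these neighbours' means.

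The arms of miR-202 were unequal in every library, with the 5p arm in the lead. The 3p arm held 12.3% of the mature counts on both arms in replicate 1, with a 95% interval from 11.8% to 12.8%. It held 4.84% in replicate 2 (4.60% to 5.09%) and 5.34% in replicate 3 (5.07% to 5.63%). The intervals of replicates 2 and 3 overlap slightly and that of replicate 1 stands clear of both. The log2 ratio of 5p to 3p counts, with 0.5 added to each count, was 2.83, 4.30 and 4.15, and its mean was 3.76 ± 0.80 (SD, n = 3; exact sign-flip permutation test, p = 0.25).

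The arms of miR-140 did not keep their order. The 3p arm held 73.6% of the mature counts on both arms in replicate 1 (95% interval 66.6% to 79.9%), against 22.5% (17.1% to 28.6%) in replicate 2 and 20.1% (14.3% to 27.1%) in replicate 3. The 3p arm was therefore 2.77-fold above the 5p arm in the first library, and 3.42-fold and 3.93-fold below it in the others. The mean log2 ratio of 3p to 5p, -0.76 ± 1.93 (SD, n = 3; exact sign-flip permutation test, p = 0.5), was smaller than its SD. Without replicate 1 it was -1.87, so this library decides the mean, and no leading arm can be named for mature miR-140 from the 3 libraries together.

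**Figure D2:**
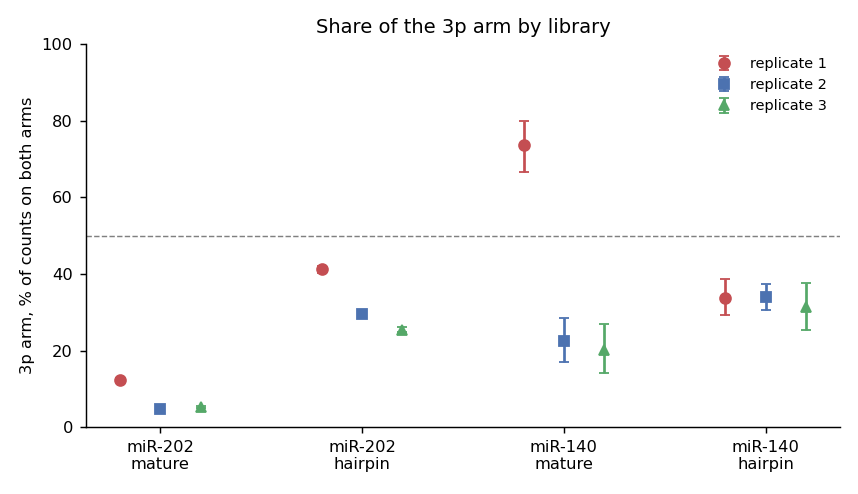
Share of the 3p arm in the counts on both arms, in percent, for miR-202 and miR-140 as mature and hairpin entries, with each library as a point and its exact binomial 95% interval as a bar. The dashed line marks equal arms, which only mature miR-140 in replicate 1 exceeds, at 73.6%.

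For the background, 112 miRNAs had both arms listed as mature entries and at least 10 counts over the arms in every library. Of these, 75, or 67.0%, had arms at least 2-fold apart in the same direction in every library, and miR-202 was among them while miR-140 was not. With a mean log2 ratio of 3.76 the arms of miR-202 were less far apart than those of 70 of the 112 miRNAs, and those of miR-140 than 105. The median distance was 5.28 on the log2 scale, and the 5p arm led in 66 of the 112.

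The leading arm differed between libraries in 24 of the 112 miRNAs, or 21.4%, and miR-140 was among these. In 16 of the 24 an arm had no counts in some library, which was not the case for miR-140. In 13 miRNAs the arms were at least 2-fold apart one way in some library and at least 2-fold the other way in another. Of these 13 only miR-140 and miR-335, from the imprinted Mest gene, had at least 10 counts on each arm in every library. Among the 38 miRNAs with that depth on both arms, the leading arm differed between libraries in 6, miR-140 among them. The SD of the log2 ratio between libraries was larger than the 1.93 of miR-140 in 3 of these 38. The 0.80 of miR-202 was near the median of 0.78.

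Replicate 1 did not favour the 3p arm in general. Relative to the mean of replicates 2 and 3, its log2 ratio of 3p to 5p was higher by 1.39 for miR-202 and by 3.35 for miR-140. Over the 112 miRNAs the median of the same difference was -0.42, and it was above 0 in 45. Larger differences than that of miR-140 were found in 21 miRNAs, and larger than that of miR-202 in 34. These 112 miRNAs needed only 10 counts over both arms together. The added 0.5 can widen the difference where an arm is at or near 0 counts. The 21 and 34 therefore do not show how common such shifts are where both arms are well counted. With at least 10 counts on each arm in every library, only 3 of 38 miRNAs had a larger SD of the log2 ratio than miR-140.

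**Figure D3:**
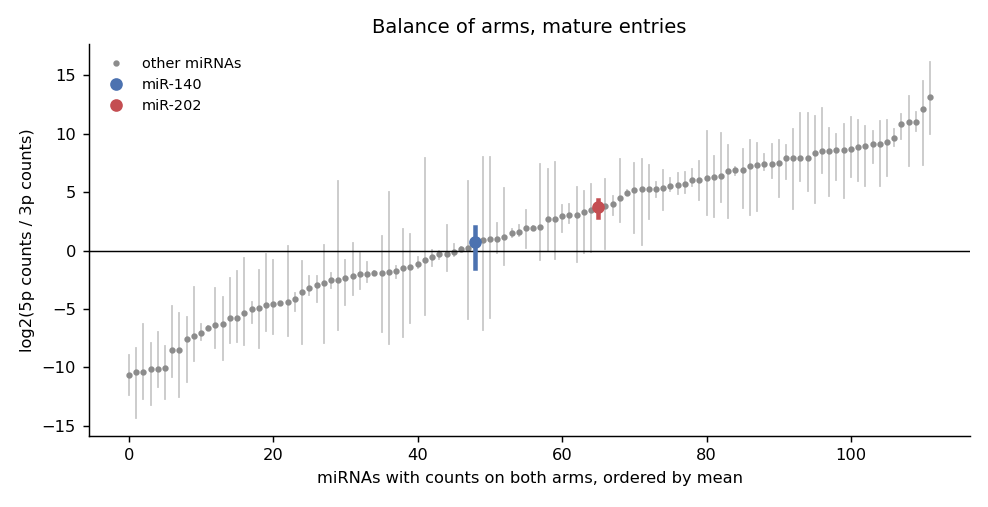
log2 ratio of 5p to 3p mature counts, with 0.5 added to each count, for the 112 miRNAs with at least 10 counts over both arms in every library. Points are means of the 3 libraries and bars run from the lowest to the highest library. The bar of miR-202 lies above 0, from 2.83 to 4.30, and that of miR-140 crosses 0, from -1.47 to 1.97.

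The catalogue holds a hairpin entry for each arm beside the mature one, and the sources used here do not say which reads went to it. As hairpin entries, miR-202-5p had 6006, 7105 and 10516 counts and a mean of 13997 ± 3659 CPM of the hairpin counts (SD, n = 3), at rank 15. miR-202-3p had 4212, 2980 and 3602 hairpin counts and 6548 ± 1854 CPM (SD, n = 3), at rank 31. The arms were closer to each other than in the mature entries. The 3p arm held 41.2%, 29.5% and 25.5% of the counts on both arms in replicates 1, 2 and 3. In the same order, the 5p arm led by 1.43-fold, 2.38-fold and 2.92-fold. The log2 ratio of 5p to 3p was 1.10 ± 0.53 (SD, n = 3; exact sign-flip permutation test, p = 0.25). Replicate 1 again had the highest share of the 3p arm.

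miR-140-5p had 274, 539 and 162 hairpin counts and 572 ± 300.4 CPM (SD, n = 3), and miR-140-3p had 140, 277 and 74 counts and 288 ± 162 CPM (SD, n = 3). Here both arms were highest in replicate 2 and lowest in replicate 3. The 3p arm held 33.8%, 33.9% and 31.4% of the hairpin counts on both arms, and its log2 ratio to 5p was -1.02 ± 0.09 (SD, n = 3; exact sign-flip permutation test, p = 0.25). The 5p arm thus led by 1.94-fold to 2.18-fold in every library, including replicate 1. Of 50 miRNAs with at least 10 hairpin counts on each arm in every library, 48 had a larger SD of this ratio than miR-140.

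Of 124 miRNAs with at least 10 hairpin counts over both arms in every library, 99, or 79.8%, had arms at least 2-fold apart in the same direction throughout, and neither miR-202 nor miR-140 was among them. The leading arm differed between libraries in 18, or 14.5%, and neither of them was among these. The arms were farther apart than those of miR-202 in 114 of the 124, and farther apart than those of miR-140 in 116. Only 50 of the 124 had at least 10 hairpin counts on each arm in every library, and in the others the added 0.5 can widen the distance.

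The types of entry gave different balances of arms for miR-202. Its log2 ratio of 5p to 3p was higher in the mature than in the hairpin entries by 2.32, 3.04 and 2.60 in replicates 1, 2 and 3, with a mean difference of 2.65 ± 0.36 (SD, n = 3; exact sign-flip permutation test, p = 0.25). For miR-140 the difference in the ratio of 3p to 5p was 2.44 in replicate 1 and -0.82 and -0.85 in the others. Its mean of 0.26 ± 1.89 (SD, n = 3; exact sign-flip permutation test, p = 1) turned to -0.83 without replicate 1.

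The same contrast can be read from the mature share of the counts of each arm. miR-202-5p was mostly counted as mature, with 72.9%, 80.1% and 69.6% of its mature and hairpin counts in replicates 1, 2 and 3, and miR-202-3p was mostly counted as hairpin, with mature shares of 35.0%, 32.8% and 27.4%. The groups of values do not overlap. Over 329 miRNAs with both types and at least 10 counts in every library, the median mature share was 53.5%, with quartiles of 31.1% and 74.5%. A higher share than that of miR-202-5p was found in 83 of the 329 and a higher share than that of miR-202-3p in 241.

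For miR-140-5p the mature share was 14.9%, 23.9% and 44.7%, and for miR-140-3p it was 48.9%, 15.0% and 30.8%, in the same order of libraries. These shares differed between libraries by more than their intervals, for miR-140-5p from 11.2% to 19.3% in replicate 1 and from 38.9% to 50.6% in replicate 3. With mature and hairpin entries summed, the 3p arm of miR-140 held 46.0%, 31.5% and 26.8% of the counts, so that the 5p arm led in every library, and that of miR-202 held 22.6%, 11.1% and 12.5%. The summed log2 ratio of 5p to 3p for miR-202 was 2.53, between those of the separate types.

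The members differed in how well the libraries matched. In mature CPM the highest library exceeded the lowest by 1.52-fold for miR-202-5p, 1.85-fold for miR-202-3p, 3.05-fold for miR-140-5p and 4.51-fold for miR-140-3p. Among 272 mature entries that had at least 10 counts in each library, the median was 1.73-fold, and 19 entries varied more than miR-140-3p and 56 more than miR-140-5p. In the hairpin entries, where 324 passed the same minimum with a median of 1.80-fold, the members varied 1.57-fold, 1.75-fold, 3.14-fold and 3.53-fold in that order. The arms of miR-140 were thus above the median entry in spread under both types, and miR-202-5p was below it. These medians cover entries of every level. Among mature entries, the rank neighbours of miR-140-5p varied from 1.70-fold to 8.15-fold and those of miR-140-3p from 1.08-fold to 13.9-fold.

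**Figure D4:**
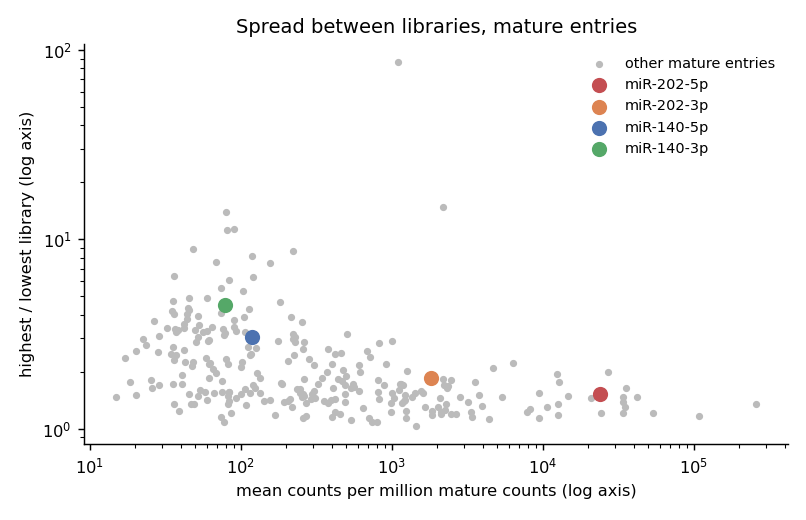
Highest over lowest library against the mean of the 3 libraries, in CPM of the mature counts, for the 272 mature entries with at least 10 counts in every library, on log axes. miR-202-5p and miR-202-3p lie at 1.52-fold and 1.85-fold, and miR-140-5p and miR-140-3p at 3.05-fold and 4.51-fold among entries of similar level.

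The profiles most like each member over the 3 libraries were sought among the same 272 entries, by the root mean square distance of centred log2 CPM. For miR-202-5p these were miR-301a-3p (distance 0.01), miR-378a-5p (0.03) and miR-201-5p (0.04). The profile of miR-202-3p was nearest to miR-376c-3p (0.01), miR-337-5p (0.05) and miR-27b-5p (0.05), and that of miR-140-5p to miR-296-5p (0.05), miR-191-3p (0.08) and miR-134-5p (0.15). For miR-140-3p they were miR-483-5p (0.10), let-7i-3p (0.19) and miR-1195 (0.31). A profile of 3 libraries can be matched by many entries, and these are descriptions only.

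Bases 2 to 7 of miR-202-3p, GAGGUA, are those of the let-7 family, whose members let-7b and let-7c are the subject of the study. Of the 1679 mature miRNA names in the reference, 13 carry them, and 10 of these had mature counts in every library, namely miR-202-3p, let-7a-5p to let-7g-5p, let-7i-5p and miR-98-5p. let-7k had 1 mature count in replicate 3, and let-7j and miR-1961 had none among the mature entries, although let-7k and let-7j had hairpin counts in every library. Base 8 separates miR-202-3p from the others with mature counts by the substitution U8G, counted from 1 at the 5′ end with the base of miR-202-3p first, and let-7j alone shares all of bases 2 to 8. Beyond the seed the sequences part, and 7 of 22 bases of miR-202-3p match let-7c-5p when aligned from the 5′ end.

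Within this set miR-202-3p ranked 9th, above miR-98-5p with 993 ± 98.6 CPM and below let-7e-5p with 4676 ± 2083 CPM (SD, n = 3 each). let-7c-5p, the most abundant, had 108944 ± 8999.8 CPM (SD, n = 3). miR-202-3p held 1.03%, 0.504% and 0.421% of the counts of the set in replicates 1, 2 and 3, while the set held 29.2% ± 4.05 of the mature counts (SD, n = 3). The 7 bases of the miR-140-3p seed are shared by miR-497b, which had no mature counts, and no other mature name in the reference has bases 2 to 7 of miR-202-5p.

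**Figure D5:**
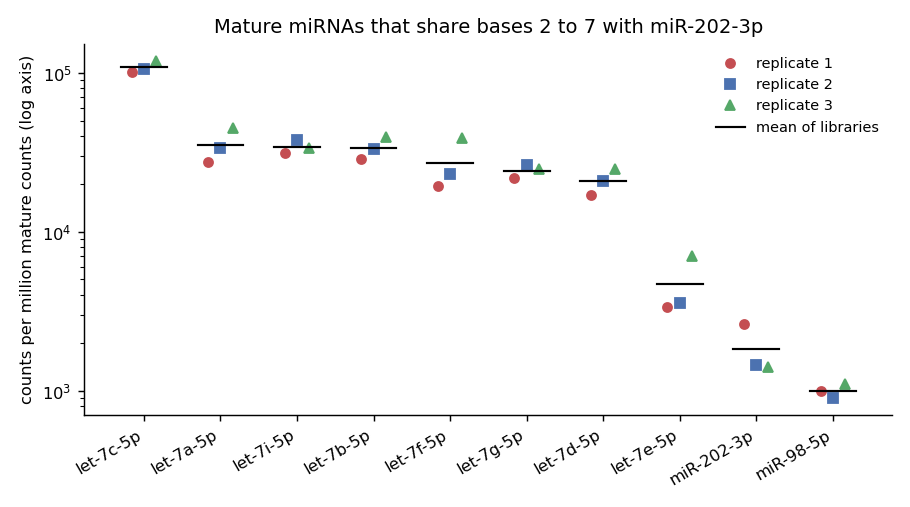
Level in CPM of the mature counts, on a log axis, of the 10 mature miRNAs that share bases 2 to 7 with miR-202-3p and had mature counts in every library, ordered by mean. Points are the 3 libraries and black lines the means. miR-202-3p, at 1820, lies below the let-7 members, at 4676 to 108944, and above miR-98-5p, at 993.

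The Rfam families of the precursors were counted apart from the arms. mir-202 had 345, 465 and 709 counts in replicates 1, 2 and 3 and 3554 ± 1053 CPM of the precursor counts (SD, n = 3), at rank 28 of 259 precursor entries. mir-140 had 122, 126 and 95 counts and 826 ± 201 CPM (SD, n = 3), at rank 58. The families were thus only a few fold apart, against 129-fold in the mature entries. As hairpin entries with both arms summed, miR-202 had 20544 ± 3988 CPM and miR-140 860 ± 463 CPM of the hairpin counts (SD, n = 3 each). Rfam families group related sequences, and the reads of an entry need not all come from the mouse genes.

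Lists of miRNAs known from other cell types were summed to show what else the EVs held, in CPM of the mature counts from the lowest to the highest library. The 4 members together had 21412 to 30014 CPM. miR-30a-5p, miR-486a-5p and miR-486b-5p, named in the study's introduction as cargo of Sertoli cell EVs, had 355 to 499 CPM, mostly miR-30a-5p. The endothelial pair miR-126a-3p and miR-126a-5p had 8790 to 17143 CPM, and the smooth muscle pair miR-143-3p and miR-145a-5p 12092 to 13757 CPM. Both pairs were detected in every library, at levels between those of miR-202-5p and miR-202-3p for miR-126a-3p, miR-143-3p and miR-145a-5p.

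The miRNAs of blood cells were lower, with 323 to 527 CPM for miR-451a and miR-144-3p of erythroid cells and 336 to 628 CPM for the 4 leukocyte miRNAs, mostly miR-150-5p. The muscle miRNAs miR-1a-3p, miR-133a-3p and miR-206-3p had 572 to 1040 CPM. miR-122-5p of the liver had 1 count in replicate 2 only, and of the neural pair miR-124-3p had none and miR-9-5p 1 to 24 counts. Of the meiotic germ cell miRNAs, miR-449a-5p had 442 to 1060 CPM and mature miR-34b-5p and miR-34c-5p had no counts among the entries used here. The opposite arm miR-34b-3p, which is not on the list, had mature counts in every library, with a mean of 73.5 CPM. miR-34c-3p had hairpin counts in every library, with a mean of 67.5 CPM of the hairpin counts. Of 5 miRNAs of early germ cells and pluripotent cells, miR-292a-3p and miR-294-3p were counted in every library, and the 5 together had 187 to 213 CPM. The levels of other cell types moved between libraries by their own amounts, and their part in the values of miR-202 and miR-140 was not tested.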

How the data were processed

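Small RNA of PND7 testis EVs was sequenced on the BGISEQ-500 platform in 3 libraries, all of 1 group. Low-quality reads were removed by the authors, and clean reads were mapped with Bowtie2 and cmsearch to the mouse genome (mm10 in the submitters' processing notes) and to small RNA databases, with miRBase first in the order that gives each read a single class. Settings for mismatches are not given in the sources used here. The authors deposited raw counts of reads per small RNA and per class, and the percent of clean reads that each class took. A deposited column whose header names molecular identifiers was left out.

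Libraries had 25716952 to 27939308 clean reads, 870967 to 1005836 mature counts and 493345 to 612122 hairpin counts. PCR copies were not told apart in the raw counts used here, and the binomial intervals treat each read as independent. The 4 members were taken by name. Counts were scaled to 1000000 mature or hairpin counts of the library (CPM), predicted miRNAs included. An entry not listed in a library was taken as 0. Arm ratios used log2 counts with 0.5 added, and exact two-sided sign-flip permutation tests over libraries. With 3 libraries, p is 0.25 whenever all 3 values have the same sign, whatever the spread between these pools. Arm calls were tested on simulated data, for miRNAs with at least 100 counts over both arms only. The simulated arms were equal or 4-fold apart and varied by counting error alone. That test therefore does not cover the spread of arm ratios between libraries. Named miRNAs were the members, those sharing bases 2 to 7 or 2 to 8, the 2 nearest above and below in rank, the 3 nearest profiles and the lists of cell types. miR-335, miR-34b-3p and miR-34c-3p, like the neighbour Mir7686, were named only with their values known. Members and lists were chosen with earlier results of these data known. Sequences came from RefSeq for GRCm38.p6, where 442 of 604 mature identifiers matched, and gene positions from GENCODE for GRCm38. Values were computed in Python (3.11.15) with SciPy (1.17.1), numpy (2.4.6) and pandas (2.3.3), and drawn with matplotlib (3.10.9). Alternatives changed the scaling, the summary, the pseudocount, the types of entry counted, the count minimum and the libraries included.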

Additional observations from a re-analysis of the deposited data

How the results depend on the processing

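Of 132 values of 25 results under other settings, 112 were called unchanged. These kept their direction, stayed within the spread between libraries or, for numbers of miRNAs, stayed within a set fold of the main number. Scaling to all miRNA counts or to clean reads changes the unit. Per 1000000 of all miRNA counts, the mature entries of miR-202-5p and miR-202-3p had 13745 and 1052, and the hairpin entries of miR-202-5p, miR-202-3p, miR-140-5p and miR-140-3p had 4756, 2216, 195 and 98.1. Per 1000000 clean reads, in the same order of members, the mature entries had 863, 64.3, 4.35 and 2.76, and the hairpin entries 294, 136, 12.4 and 6.25. With mature and hairpin entries summed, miR-202-3p, miR-140-5p and miR-140-3p had 3569, 288 and 157 CPM. The number of miRNAs whose leading arm differed between libraries was 24. With at least 100 counts over both arms, a filter that tests fewer miRNAs, it was 5 of 77, or 6.49%, miR-140 among them. Leaving out each replicate in turn gave 15 to 19, and from -0.83 to 0.81 for the mature minus hairpin arm ratio of miR-140, which turned when replicate 1 was left out. The cause was not tested. Size factors, pooled counts and no pseudocount turned no result. No replicate block was fitted, since all libraries belong to a single group and the arm ratios were already taken within each library.

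The counts of miR-140, from 33 to 169 as mature entries, limit what can be said of its arms in a single library. With 3 libraries, the sign-flip test used here cannot reach 0.05.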

Other observations

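Mir7686 is annotated in the same exon of Gm2044 as Mir202, on chromosome 7 from 139957566 to 139957622 and 66 bases from it. It was examined after the annotation of Mir202 had been read. Its 5p arm had 112 mature counts in replicate 3 and none in replicates 1 and 2, and its 3p arm had 31 in replicate 1 and none in the others, while miR-202-5p had at least 16196 in every library. The levels of these neighbours within an exon were thus far apart, and the detected arm of miR-7686 was not the same in the libraries.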
